A study of Rattus norvegicus with 6 samples.

Results

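The inflammasome and the cytokines it releases were followed in the renal cortex of rats given N-nitrosodimethylamine (NDMA), through 10 genes: Nlrp3, Pycard, Casp1, Gsdmd, Il1b, Il1rn, Il1r1, Il18, Il18bp and Il18r1. The genes were listed by name, and a probe counted for a gene when the accession printed for it on the array was a RefSeq transcript of that gene. By this rule 8 of the 10 genes had 10 probes, among the 15284 genes named on the array. Gsdmd and Il1r1 had no probe matched by accession and have no value here. Total RNA from renal cortex was measured on 1-colour Agilent arrays, with 1 array per animal. All 6 rats were male Sprague-Dawley (Crl:CD(SD)) animals bought at 5 weeks of age and kept on a basal diet. The controls (n = 3) received water for 4 weeks, and the treated rats (n = 3) received NDMA at 4 mg/kg/day for the same 4 weeks. The question was whether these transcripts differed after 4 weeks of this nitrosamine, which liver and kidney enzymes oxidise to a compound that methylates DNA.

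An inflammasome is a protein platform that assembles in the cytosol when a sensor such as NLRP3 meets signs of damage. The adaptor ASC, encoded by Pycard, links the sensor to the protease caspase-1, encoded by Casp1. Caspase-1 cuts the inactive precursors of the cytokines IL-1 beta and IL-18 and also gasdermin D, whose fragment opens pores in the cell membrane. Il1rn encodes an antagonist that occupies the IL-1 receptor without signalling, and Il18bp encodes a secreted protein that binds IL-18 and keeps it from its receptor, of which Il18r1 encodes one chain. In kidney, Il18 is known from tubular epithelium as well as from macrophages, whereas Il1b is mainly a gene of activated myeloid cells. RNA amounts say nothing of whether the precursors were cut.

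Values below are normalised log2 signals: the background-subtracted signal of a probe over the 75th percentile of its own array, so that 0 is that percentile and a difference of 1 is a 2-fold change. The array-wide percentile ran from 993 to 1053 on slide 1, which held the controls and NDMA animal 1, and was 1310 and 1299 on slide 2, which held NDMA animals 2 and 3. Proximal tubule markers, the defining genes of cortex, were well above background on every array for all 10 markers listed, with Slc34a1, the phosphate carrier of that segment, at a mean of 8.51 in the controls. Of the 10 member probes, 9 passed the detection filter, which asked that a group have the probe well above background in each of its 3 animals, and each of the 8 genes had at least 1 of them.

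Of the 8 genes read by their brightest probe, 6 were higher after NDMA (Nlrp3, Pycard, Casp1, Il1rn, Il18 and Il18bp), 0 were lower and 2 did not pass (Il1b and Il18r1), at an adjusted p under 0.05. Over all 43118 probes tested, 2.5% were called higher and 0.485% lower. In 7 of the 8 genes every treated animal lay above every control, where 10.9% of all probes did so. The differences of the 8 genes ran from -0.07 to 1.25 with a median of 1.08, against a median of -0.04 over all probes tested. With the slide as a block, 7 of the 8 differences were above 0 and 0 were called, and 0.167% of all probes were called higher. That fit rests on NDMA animal 1, the 1 treated animal on the controls' slide, and its difference for a gene equals that animal's distance from the control mean.

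**Figure D1:**
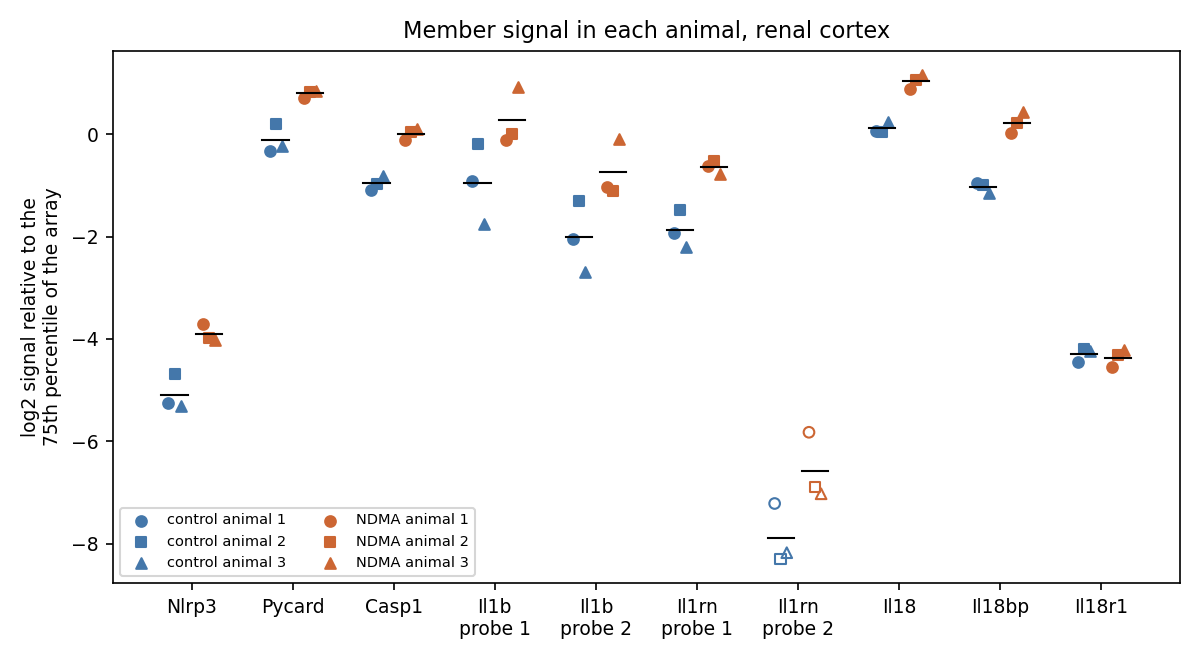
Normalised log2 signal (0 is the 75th percentile of the array) of each member probe in each of the 6 animals, with controls in blue, NDMA in orange, symbols for the animal and black lines for group means; open symbols mark the Il1rn probe that did not pass the detection filter. The groups are apart for every probe but that of Il18r1, and the 3 controls of Il1b are spread widest among the probes that passed.

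The upstream parts of the inflammasome, the sensor, the adaptor and the protease, were each about 2-fold higher in the treated cortex. Nlrp3, the sensor, had signals of -5.25, -4.69 and -5.31 in controls 1 to 3 and of -3.71, -3.98 and -4.01 in NDMA animals 1 to 3. The groups did not overlap, and control 2 lay nearest to the treated rats. The difference was 1.18 ± 0.19 (moderated SE, n = 3 per group, 2.27-fold, adjusted p = 0.0292). This is a dim probe, with processed signals of 25.8 to 38.4 in the controls, and with normexp background correction, which adds an offset to all signals, the difference was 0.35 (adjusted p = 0.103).

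Pycard, the adaptor gene, read -0.32, 0.21 and -0.22 in the controls and 0.72, 0.83 and 0.85 in the treated rats. The treated rats lay close together (SD 0.07), and control 2 was again the highest control. The difference was 0.91 ± 0.15 (1.88-fold, adjusted p = 0.0328). Casp1, the protease gene, read -1.10, -0.97 and -0.82 in the controls and -0.11, 0.04 and 0.09 after NDMA. Its difference of 0.97 ± 0.11 (1.96-fold, adjusted p = 0.0105) came with a narrow spread, an SD of 0.14 in the controls and 0.10 in the treated rats. With slide blocked, the differences of Nlrp3, Pycard and Casp1 were 1.37 ± 0.26, 0.83 ± 0.22 and 0.86 ± 0.15 (adjusted p = 0.150, 0.285 and 0.124).

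Of these genes Casp1 was still called whichever 1 of the 6 animals was left out (adjusted p from 0.0249 to 0.0455). Nlrp3 and Pycard kept theirs without control 2 (adjusted p = 0.0197 and 0.0203) and lost them without any other animal. Without control 1, control 3 and NDMA animals 1, 2 and 3 the adjusted p of Nlrp3 was 0.102, 0.0787, 0.0714, 0.0958 and 0.0830, and that of Pycard was 0.0996, 0.0948, 0.0684, 0.116 and 0.106.

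The IL-1 genes showed a called rise of the antagonist and a larger spread of the cytokine. Il1b, by its brighter probe, read -0.91, -0.19 and -1.76 in the controls and -0.11, 0.00 and 0.92 after NDMA. The groups touched but did not overlap: control 2 lay just below NDMA animal 1, control 3 was lowest and NDMA animal 3 highest. The difference was 1.22 ± 0.45 (2.33-fold, 95% interval 0.14 to 2.30 on the log2 scale) and did not pass (adjusted p = 0.230). The other Il1b probe read -2.04, -1.31 and -2.70 in the controls and -1.03, -1.11 and -0.10 in the treated rats. It placed the controls in the same order and NDMA animal 3 highest, with a difference of 1.27 ± 0.41 (adjusted p = 0.190). The SD of Il1b in the controls, 0.79 and 0.70 by the 2 probes, was the widest of any member probe that passed the filter, against 0.12 for Il18.

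Il1rn, the receptor antagonist, read -1.93, -1.48 and -2.20 in the controls and -0.62, -0.53 and -0.78 after NDMA by its brighter probe. Every treated rat lay above every control, and the controls stood in the same order as for Il1b, with control 2 highest and control 3 lowest. The difference was 1.22 ± 0.19 (2.33-fold, adjusted p = 0.0278), and 1.25 ± 0.29 when slide was blocked (adjusted p = 0.217). The call was kept without control 2 (adjusted p = 0.0204) and lost without control 1, control 3 and NDMA animals 1, 2 and 3 (adjusted p = 0.0992, 0.0542, 0.0705, 0.106 and 0.0769). The other Il1rn probe rose well above background in 0 of 3 controls and 1 of 3 treated rats, so it did not pass the filter and no fold is given for it. It read -7.22, -8.30 and -8.18 in the controls and -5.82, -6.89 and -7.03 in the treated rats.

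To compare the cytokine with its antagonist, the log2 signal of Il1b minus that of Il1rn was formed on each array. It was 1.02, 1.30 and 0.44 in the controls and 0.51, 0.53 and 1.71 after NDMA, so the groups overlapped and NDMA animal 3 was highest. The change of Il1b minus that of Il1rn was 0.00 (exact two-sided permutation test over animals, p = 1), and it ran from -0.40 to 0.20 when 1 animal was left out, with -0.40 without NDMA animal 3. It was -0.41 on slide 1 alone, so which of the pair changed more was not settled by these 6 animals.

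**Figure D2:**
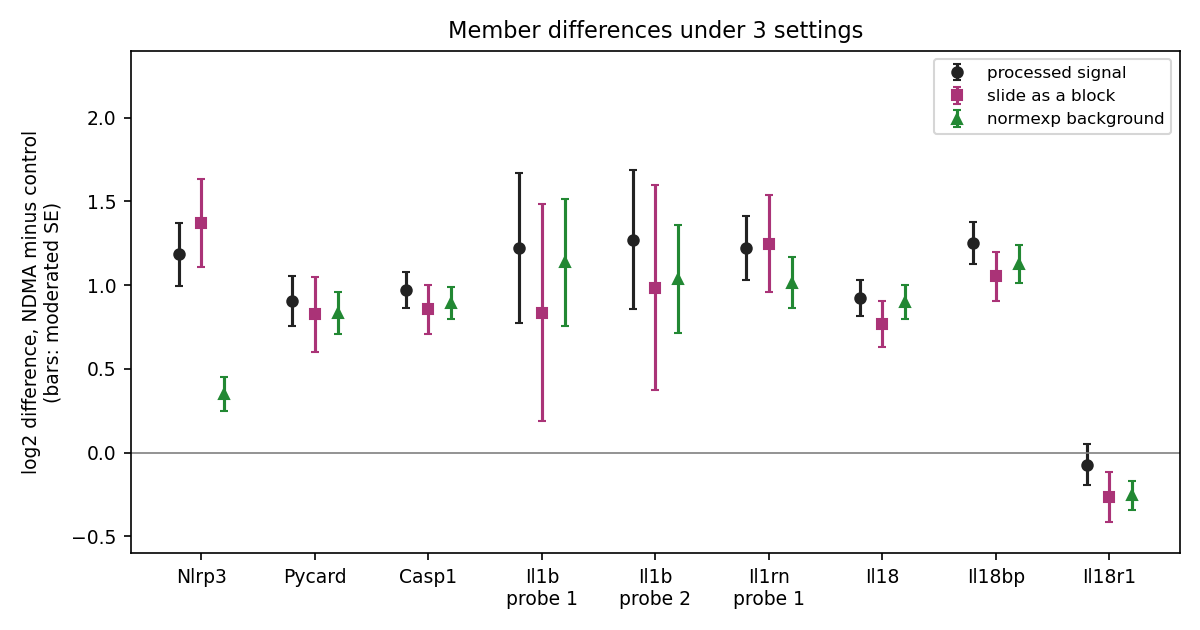
Log2 difference, NDMA minus control, of the 9 member probes that passed the detection filter, with moderated standard errors, from the processed signal (black), with the slide as a block (purple) and with normexp background correction (green). The 3 settings lie near each other for most members, Nlrp3 falls from 1.18 to 0.35 with normexp, and Il18r1 lies below 0 in all 3.

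The IL-18 genes showed a rise of the cytokine and a rise of its binding protein, while the receptor chain, read by a dim probe, showed none. Il18 read 0.06, 0.03 and 0.25 in the controls and 0.88, 1.07 and 1.16 after NDMA. The groups were well apart, with a difference of 0.92 ± 0.11 (1.90-fold, 95% interval 1.58-fold to 2.27-fold, adjusted p = 0.0125). The difference was 0.77 ± 0.14 when slide was blocked (adjusted p = 0.134), and the call was lost without control 1 (adjusted p = 0.0564) and without NDMA animal 2 (0.0513).

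Il18bp, the IL-18 binding protein, read -0.948, -0.997 and -1.14 in the controls and 0.02, 0.22 and 0.43 in the treated rats. The groups did not overlap, and the difference was 1.25 ± 0.12 (2.38-fold, 95% interval 1.94-fold to 2.94-fold, adjusted p = 0.00848). It was 1.05 ± 0.15 when slide was blocked (adjusted p = 0.0874), and the call was kept in each of the 6 fits without 1 animal (adjusted p from 0.0165 to 0.0372). On each array the log2 signal of Il18 minus that of Il18bp was 1.01, 1.03 and 1.39 in the controls and 0.86, 0.84 and 0.73 after NDMA. All treated rats lay below all controls. The change of Il18 minus that of Il18bp was -0.33, with p = 0.1 in the exact two-sided permutation test, which is the smallest p that 3 against 3 animals allow. It ran from -0.40 to -0.21 without 1 animal and was -0.28 on slide 1 alone.

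Il18r1, a chain of the IL-18 receptor that is known from T and NK cells, read -4.45, -4.19 and -4.24 in the controls and -4.56, -4.31 and -4.22 after NDMA. The groups overlapped, and NDMA animal 1 was lowest. The probe was dim, with processed signals from 44.7 to 69.7, which limits what its values can show. The difference was -0.07 ± 0.12 (adjusted p = 0.789), with a 95% interval from -0.37 to 0.23, or from 0.775-fold to 1.17-fold. It was -0.26 ± 0.15 when slide was blocked (adjusted p = 0.685). The gene of the other receptor chain, Il18rap, had no probe matched by accession.

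The promoters of 9 members are in the RefSeq table of build GRCr8, each with 250 bases before and 50 after the start. A GAAANNGAAA match, the core of the element bound by interferon regulatory factors, stood in the promoters of Casp1 and Il18bp, and in 3.92% of the 33469 promoters of that length. These 2 promoters are shown because both genes kept their calls without any 1 animal; capitals mark the match, which in Casp1 lies on the opposite strand. Casp1 is at chr8:10872580-10872879 on the plus strand, with the match at -28 to -19 from the start, and Il18bp is at chr1:165786906-165787205 on the minus strand, with the match at 40 to 49.
Casp1: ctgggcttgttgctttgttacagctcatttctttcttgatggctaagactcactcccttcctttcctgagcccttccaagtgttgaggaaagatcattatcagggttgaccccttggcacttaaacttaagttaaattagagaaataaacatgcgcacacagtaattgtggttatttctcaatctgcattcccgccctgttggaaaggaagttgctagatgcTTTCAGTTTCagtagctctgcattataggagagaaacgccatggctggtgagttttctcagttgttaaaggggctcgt
Il18bp: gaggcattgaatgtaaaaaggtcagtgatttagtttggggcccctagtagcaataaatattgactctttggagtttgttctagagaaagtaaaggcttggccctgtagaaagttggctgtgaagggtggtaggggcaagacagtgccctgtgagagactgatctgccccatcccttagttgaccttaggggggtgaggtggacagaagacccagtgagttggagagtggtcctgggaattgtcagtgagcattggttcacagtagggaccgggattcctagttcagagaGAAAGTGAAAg

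A further pair of promoters is shown for the sensor and for the cytokine with the widest spread. Nlrp3, at chr10:44827848-44828147 on the plus strand, held TTCNNNGAA, the letters of the interferon gamma activated site, at -121 to -113, and so did Il18r1, which did not pass, as did 8.87% of all promoters. Il1b, at chr3:137036532-137036831 on the minus strand, held TATAAA at -60 to -55, and Il1rn held it on the opposite strand, as did 14.2% of all promoters. Capitals mark these matches.
Nlrp3: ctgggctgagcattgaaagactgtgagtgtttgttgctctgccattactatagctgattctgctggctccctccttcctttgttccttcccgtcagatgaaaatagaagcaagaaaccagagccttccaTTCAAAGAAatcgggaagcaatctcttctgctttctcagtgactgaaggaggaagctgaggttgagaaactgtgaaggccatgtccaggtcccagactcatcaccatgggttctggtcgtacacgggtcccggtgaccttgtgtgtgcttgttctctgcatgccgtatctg
Il1b: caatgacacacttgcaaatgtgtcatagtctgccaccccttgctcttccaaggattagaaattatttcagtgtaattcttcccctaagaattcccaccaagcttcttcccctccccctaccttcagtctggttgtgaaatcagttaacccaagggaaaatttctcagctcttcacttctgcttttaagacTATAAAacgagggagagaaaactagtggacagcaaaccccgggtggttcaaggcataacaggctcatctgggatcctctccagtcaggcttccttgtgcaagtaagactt

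Both strands were searched for all motifs. GAGGAA, the core bound by the myeloid factor PU.1, stood in the promoters of Casp1, Nlrp3 and Il18r1 and in 27.6% of all promoters. The NF-kappaB consensus stood in that of Il1r1 alone among the 9, and in 4.18% of all. None of the 9 held TGACTCA (AP-1, 4.63% of all), TGACGTCA (CRE, 1.83%) or TTGCGCAA and TTACGCAA (C/EBP, 0.335%). A match is a string of letters in a window and not a measured binding site.

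Other genes of the same pathways were read from lists given by function. These lists, chosen with earlier results of these data known, hold 63 genes, of which 56 had a matched probe and 43 passed the filter. Of the 43, 2 were higher (4.65%, near the 2.5% of all probes called higher), 0 lower and 41 not called by their brightest probe. Other inflammasome genes had a median difference of 0.08 over 13 genes (-0.05 with normexp) with 0 called. Nearest to the threshold among them were Casp12, a caspase of the same gene cluster, at 0.45 ± 0.12 (adjusted p = 0.123), and Ninj1, which ruptures the membrane late in lytic death, at -0.37 ± 0.10 (adjusted p = 0.127). Nlrp6, another sensor, had the difference farthest from 0 in the list, -0.71 ± 0.21 (adjusted p = 0.151), with every treated rat below every control. Casp4, the caspase that senses endotoxin in the cytosol, was at 0.30 ± 0.17 and Txnip, a binding partner of NLRP3, at 0.13 ± 0.11; these 3 were named after their values were seen. No probe was matched for the sensors Nlrc4 and Aim2, and P2rx7, the ATP receptor upstream of NLRP3, did not pass the filter.

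Of 5 other ligands and receptors of the IL-1 family that passed the filter, 0 were called, and the median was -0.23. Il1r2, the decoy receptor that binds IL-1 without signalling, read -5.70, -5.11 and -5.92 in the controls and -4.39, -4.36 and -4.77 after NDMA. The groups did not overlap, and control 2 was again the highest control. The difference was 1.07 ± 0.23 (adjusted p = 0.0708) and fell to 0.18 with normexp. The Il1r2 probe was well above background in 2 of 3 controls and in 3 of 3 treated rats. It passed the filter only through the treated arrays, so its adjusted p rests in part on control signal at background. Il36rn, the antagonist of the IL-36 receptor, had -0.31 ± 0.09 (adjusted p = 0.159) by the only probe of its 4 that passed the filter. That probe had a control mean of -0.77, and the others had -7.05, -7.63 and -8.25. The alarmin Il33 had -0.23 ± 0.13 by its brighter probe and 0.09 ± 0.22 by the other, and Il1a was near background on every array. Of 10 genes of receptor signalling 0 were called by their brightest probe, with a median of 0.04. Irak4, the kinase next to the receptors, had 0.37 ± 0.08 (adjusted p = 0.0730). Irak3, which restrains that kinase, had 0.38 ± 0.11 by its brightest probe (adjusted p = 0.145) and 0.83 ± 0.09 by a dimmer probe (adjusted p = 0.00973).

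Among 6 genes that act with IL-18 in lymphocytes 1 was called, with a median of 0.26 (-0.06 with normexp). Ifng, the cytokine that IL-18 is known to induce, read -7.42, -8.22 and -8.09 in the controls, where its probe was not well above background, and -5.08, -5.14 and -5.22 after NDMA. Each control was set to the dimmest signal counted as well above background on its array, or to its own signal where that was brighter. Against these values the treated mean of Ifng, taken as measured and without an error, was 1.94-fold higher. The fit on the measured signals called it (adjusted p = 0.00596), and with normexp the difference was 0.49 (adjusted p = 0.0138). The probe passed the filter only through the treated arrays, so its adjusted p and its call rest on control values at background. Il12rb1, a receptor chain for IL-12, was also at background in all 3 controls, and it did not pass (adjusted p = 0.125). With its controls set in the same way the treated mean was 1.44-fold higher, a value given without an error. With normexp its difference was 0.05. Stat4, the factor downstream of this receptor, had a difference of 0.76 ± 0.20 (adjusted p = 0.128). Below 0 were Tbx21 (-0.23 ± 0.08, adjusted p = 0.224) and Il12rb2 (-0.26 ± 0.10, adjusted p = 0.252), both without overlap of the groups. The Tbx21 value is from the only probe of its 2 that passed the filter, with a control mean of 5.999. The other Tbx21 probe had means of -7.18 in the controls and -6.24 after NDMA, a difference above 0. Which of these probes reads Tbx21 was not tested. Il12a was below 0 too, at -0.28 ± 0.24 by its brighter probe (adjusted p = 0.555). Among 9 genes that IL-1 is known to induce 1 was called, with a median of 0.59. This was Icam1, an adhesion molecule (0.67 ± 0.10, 1.59-fold, adjusted p = 0.0218). The Icam1 call was kept without NDMA animal 1 (adjusted p = 0.0349), lost without any other animal (0.0582 to 0.0892) and lost with slide blocked (0.209). Ccl2, a chemokine for monocytes, had 1.91 ± 0.38 (adjusted p = 0.0573); it was called with normexp (1.79, adjusted p = 0.0232) and without control 3 (1.47, adjusted p = 0.0315). Vcam1 had 0.59 ± 0.16 (adjusted p = 0.136), and Il6 was not well above background on any array.

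**Figure D3:**
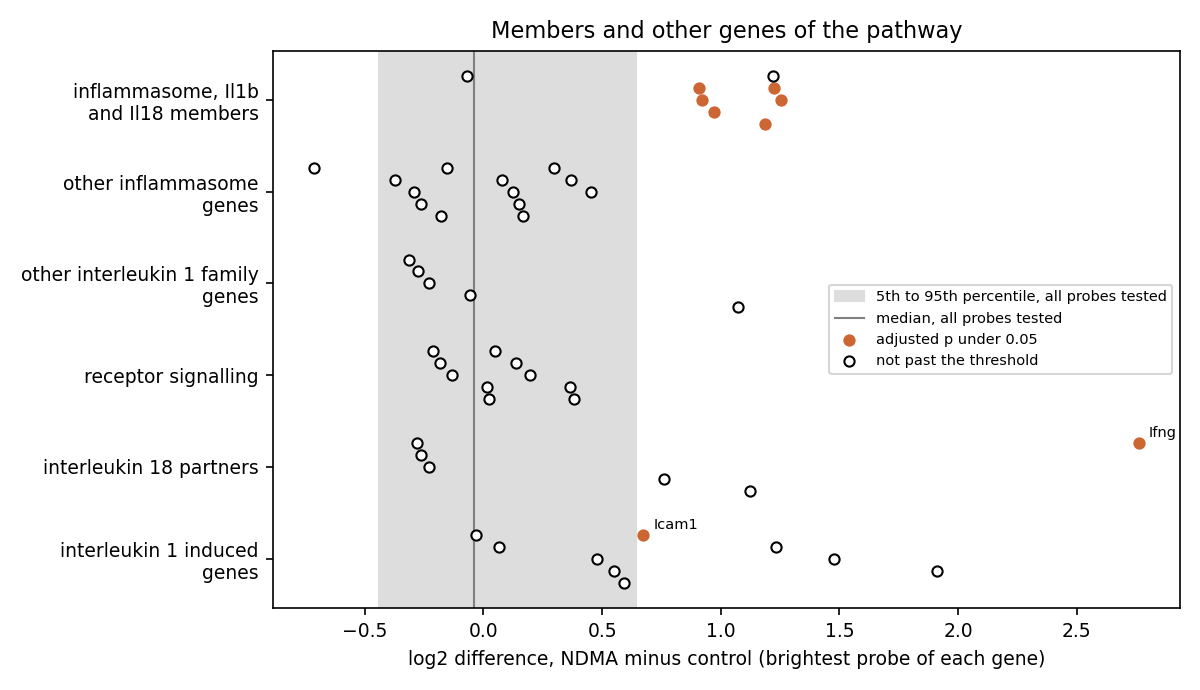
Log2 difference, NDMA minus control, of the members and of the other pathway genes that passed the detection filter, each by its brightest probe, with filled points past the threshold, the grey band from the 5th to the 95th percentile of all probes tested and the grey line at their median. Of the members, 7 lie to the right of the band, while the 13 other inflammasome genes lie in or left of it and 2 other pathway genes are called, Ifng and Icam1.

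Markers of immune cells moved with the members. Of 12 macrophage markers 11 passed the filter and 8 were higher, with a median of 1.13; the smallest p-values were those of Cd68, C1qb and Ptprc, the last a gene of leukocytes in general. Their summed signal, in units of the 75th percentile, ran from 21.9 to 26.5 in the controls and from 53.6 to 63.8 after NDMA. Over the same arrays the summed signal of the 8 member genes ran from 3.66 to 4.52 and from 7.13 to 9.03. Cd163 did not pass the filter, and Adgre1, the gene of F4/80, had a difference of 0.15 ± 0.17. Of 10 T and NK cell markers 6 were higher (median 1.44): Cd3d, Cd3e, Cd3g, Cd247, Cd2 and Cd4. Cd5 (2.94 ± 0.63, adjusted p = 0.0726) and Cd8a (0.93 ± 0.24, adjusted p = 0.115) had differences above 0 and did not pass. The control mean of Cd5 was -6.33. The dimmest signals counted as well above background on the control arrays had a mean of -6.10. The Cd5 probe thus passed the filter only through the treated arrays, and its difference rests in part on control signal at background. Klrd1 and Nkg7 lay below 0 and did not pass. Klrd1 had -0.58 ± 0.19 by its brighter probe and -0.70 ± 0.27 by the other (adjusted p = 0.194 and 0.242). Nkg7 had -0.10 ± 0.19 (adjusted p = 0.813). The summed signal of the list ran from 2.60 to 3.17 in the controls and from 5.92 to 6.66 after NDMA. The part of these cells in the members' differences was not tested, and in whole cortex more cells of a type and more RNA per cell cannot be told apart.

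Neutrophil markers did not move in the same way. Of 8 listed, 7 were matched and 4 passed, with 0 called; S100a8 had a difference of 0.03 ± 0.55 and S100a9 one of -0.01 ± 0.50, and Elane was not well above background on any array. Their summed signal was 0.73, 1.37 and 0.51 in the controls, in the order also seen for Il1b and Il1rn, and 0.63, 0.85 and 0.81 in the treated rats. Among tubule genes, 1 of 10 proximal tubule markers was called lower, Lrp2, the gene of megalin (-0.57 ± 0.10, adjusted p = 0.0439). That call was lost without any 1 of the 6 animals (adjusted p from 0.0577 to 0.141), with slide blocked (0.364) and with quantile normalization (0.0652). The median of the 10 was -0.32, and 0 of the 10 differences were above 0, where 41.9% of all probes tested were. The summed signal of the list ran from 2340 to 2530 in the controls and from 1794 to 2081 after NDMA. Of 10 collecting duct markers 0 were called, with a median of -0.19 and a summed signal from 248 to 293 in the controls and from 184 to 237 after NDMA.

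**Figure D4:**
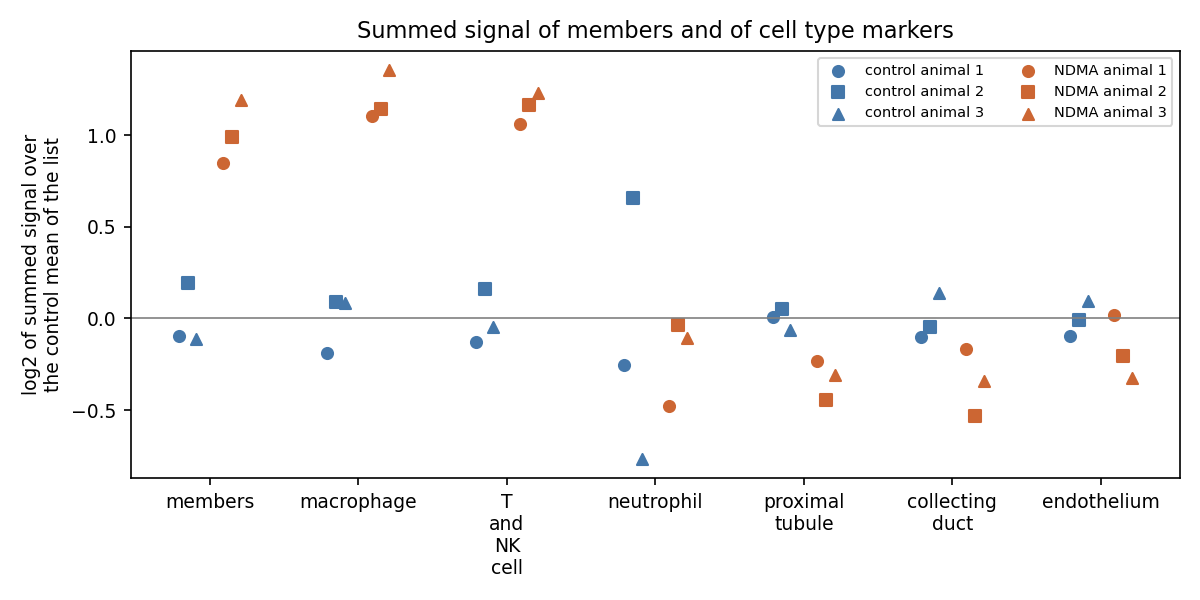
Summed signal of the 8 member genes and of 6 cell type marker lists in each animal, as log2 over the mean of the 3 controls for that list. The treated animals (orange) lie above the controls (blue) for members, macrophage and T and NK cell markers. They lie below the controls for proximal tubule and collecting duct markers, while the neutrophil sum of control 2 is the highest of the 6.

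As a description of pattern, the log2 signals of Il18 and of Il1b over the 6 arrays were set against 12168 other named genes by Pearson correlation, a measure that here shares the 2 groups and the array scaling. The genes most like Il18 were Slamf8, Dnase1l3, Icam1, Casp1 and Klrc3, with r from 0.995 to 0.998. All of them had a called rise, from 0.67 for Icam1 to 2.19 for Dnase1l3, which choosing them by likeness to Il18 favours. Casp1 was thus both a member and among the 5 nearest patterns, while Il18bp was at 0.973, Pycard at 0.909, Il1rn at 0.869, Nlrp3 at 0.860, Il1b at 0.701 and Il18r1 at -0.11. The genes most like Il1b were Dnmt1, Yars1, Taf12, Unc5b and Pdcd1, with r from 0.988 to 0.998, and none of these was called, with differences from 0.12 for Yars1 to 0.82 for Pdcd1. Seen after the values, the SD of the controls was from 0.10 to 0.14 for Il18bp, Il18, Il18r1 and Casp1 and from 0.28 to 0.79 for Pycard, Nlrp3, Il1rn and Il1b; control 2 was the highest control in the latter 4 genes and in Il18r1.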

How the data were processed

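Arrays of 6 rats, 3 per group by sample title, were used; replicates are separate animals per the series' design text. The intensity values deposited by the authors come from Agilent Feature Extraction (10.7 per the submitters' processing notes, 10.7.1.1 per the file headers), and the processed intensity is background-subtracted on its own array. The linear ratio in the authors' value table matched the processed intensity over the array's 75th percentile (largest log2 difference 0.00174 over values above 0.1, column medians 0.112, 0.110 and 0.114 in the controls and 0.115, 0.112 and 0.114 after NDMA), with no centring found.

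Here signals were taken as log2 minus the 75th percentile over 61657 probes, spots flagged as outliers were left out, and 43118 probes passed the detection filter. Names came from RefSeq (GRCr8) accessions, for 27460 probes; the arrays' own annotation names build rn4. The comparison used limma 3.58.1 (R 4.3.3) with a two-sided moderated test (residual df 4, prior df 2.40), and p-values were adjusted by Benjamini-Hochberg across all probes; the fit was tested on simulated data. The number of arrays limits the precision. Named genes were the members, list genes that passed and the 2 with the smallest p in each list, unless said otherwise. Members and lists were chosen with earlier results of these data known. Alternatives covered background, scaling, filter, variance model, feature, slide, pairing and each animal left out.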

Additional observations from a re-analysis of the deposited data

How the results depend on the processing

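Over the 43118 probes 1289 were called, 83.8% of them higher, with 6 of 8 members, 2 other pathway genes and 15 cell type markers. With normexp 64.6% of the calls were higher and with a trended and robust variance 74.1%. Without the detection filter the counts were 488, 3, 1 and 8; with detection required in all 6 animals 1 pathway gene was called. With the slide as a fixed block they were 82 (4291 at an unadjusted p under 0.05), 0, 0 and 0, and on slide 1 alone 0, 0, 0 and 0 in limma (4667 at an unadjusted p under 0.05). With 1 animal left out they ran from 464 to 987, from 2 to 6, from 1 to 3 and from 7 to 12. The change of Il1b minus that of Il1rn turned to 0.12 with normexp and ran from -0.40 to 0.20 with 1 animal left out, and Il18r1 ran from -0.15 to 0.026 with 1 animal left out, turning without NDMA animal 1. The cause of these changes was not tested. Replicate numbers did not pair the animals (correlations of deviations 0.03, -0.05 and 0.01); with the replicate number as a block 511 probes, 3 members, 1 pathway gene and 8 markers were called. Of the values of single member probes under alternatives, 124 kept direction and side of the threshold, 36 lost the call and 1 reversed. Dim probes such as that of Nlrp3 limit precision.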
